A study of Mus musculus with 16 samples.

Results

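The secretogranins and prohormone processing genes are 10 genes taken by symbol from the deposited tables, and all 10 were among the 21878 mRNAs listed. They were selected on their EAE-against-PBS counts and FPKM in these same libraries, so their difference between the groups is a description. They comprise the granins and granin-like precursors Scg2, Scg3, Chga, Chgb and Vgf, the processing enzymes Pcsk1, Pcsk2 and Cpe, and the enzyme partners Scg5 and Pcsk1n. RNA-seq was performed on cells labelled as microglia, sorted as CD11b+/CD45int from the brains of 16 wild-type female C57BL/6 mice that were 8 weeks old. EAE was induced in 8 mice with MOG peptide residues 35–55 in complete Freund's adjuvant and pertussis toxin on days 0, 2 and 7, and the other 8 mice received PBS, with 1 library per mouse. Brains were taken on day 14. In the treatment field of the labels the last MOG residue goes from 55 in EAE 1 to 62 in EAE 8, whereas the protocol gives 55 for all.

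Granins are acidic proteins that aggregate in the trans-Golgi network and help to form dense-core granules, the vesicles in which neurons and endocrine cells store peptides for regulated release. Inside the maturing granule, the convertases PC1/3 (Pcsk1) and PC2 (Pcsk2) cut precursors after pairs of basic residues, and carboxypeptidase E (Cpe) removes the basic residues that remain. The 7B2 protein (Scg5) accompanies PC2 on its way through the secretory pathway and is needed for its activation, and proSAAS (Pcsk1n) is an inhibitor of PC1/3. In the brain these genes are best known from peptide-releasing neurons, and Cpe is also made by astrocytes.

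The label was checked against marker genes before the members were compared. Summed over 19 pan-neuronal markers, the level was 1812–2245 FPKM in EAE libraries (median 2112) and 2211–2478 FPKM in PBS libraries (median 2291). FPKM is the count divided by gene length and library total. The 17 microglia markers together reached 241–389 FPKM and 222–359 FPKM, respectively, and 11 astrocyte markers reached 1233–1873 and 1441–1708 FPKM. Neuronal and astrocyte RNA was thus far above microglial RNA in every library, which goes against the label, although no microglia marker was at 0 in all libraries, and the part of neuronal content in the results below was not tested. In such bulk libraries fewer cells of a type and less RNA per cell cannot be told apart. Total counts were 24587443–30244215 per EAE library and 26031889–34184576 per PBS library, so that even the least abundant member, Pcsk1, had at least 744 counts in each.

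Promoter sequence was read for 8 of the 10 genes from RefSeq on GRCm38.p6, as the 250 bases before the annotated start. The cAMP response element with the letters TGACGTCA, which reads the same on both strands, was found in the promoters of 3 of the 8 genes, Scg2, Chgb and Pcsk1. It was found in 1.55% of all 32851 promoter windows of the same length. Its core TGACG, searched on both strands and contained in the longer motif, was present in 7 of the 8 promoters and in 17.8% of all. A match is a run of letters and not a measured binding site. The motifs lie 68 to 61 bases before the start in Scg2 (chr1:79440076-79440105, minus strand), 72 to 65 in Chgb (chr2:132781559-132781588, plus strand), 78 to 71 in Pcsk1 (chr13:75089768-75089797, plus strand) and, for the core of Chga, 44 to 40 (chr12:102554886-102554912, plus strand). The Scg2 and Chgb windows fall inside the gene as GENCODE annotates it, since its start lies further upstream. The windows of Scg2, Chgb, Pcsk1 and Chga are shown 5′ to 3′ with the motif in capitals. Chga holds only the core, nearer to the start than the longer motif of the other 3. The core was also found in Scg5 (175 to 171 bases before the start), Pcsk2 (34 to 30) and Scg3 (30 to 26). Pcsk1 held a further core apart from its longer motif (50 to 46). These sites are not shown. A link between these letters and the levels in EAE libraries was not tested.
Scg2: ggctgagccggTGACGTCAgcgtggaatgc
Chgb: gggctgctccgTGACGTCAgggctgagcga
Pcsk1: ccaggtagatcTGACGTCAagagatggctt
Chga: gggcggtcctaTGACGtaatttcctgg

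All 10 members had a lower fitted level in EAE libraries, with log2FC values between -0.47 for Scg2 and -0.19 for Pcsk2 and Pcsk1n and a median of -0.26. Over the 17885 mRNAs tested, the median log2FC was 0.01 and 47.3% of the values were negative. In the edgeR quasi-likelihood fit over all mRNAs, 5 of the 10 members were called lower at a Benjamini-Hochberg adjusted p under 0.05, namely Scg2, Chga, Chgb, Scg5 and Scg3, against 1.76% of all mRNAs tested. No member was called higher, against 0.66% of all. With the |log2FC| over 1 that the methods add for a DEmRNA, 0 members remained, as did 0.0224% of all mRNAs on the lower side. The adjusted p-values given for single members place each gene in the fit and are not independent evidence about the group.

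**Figure D1:**
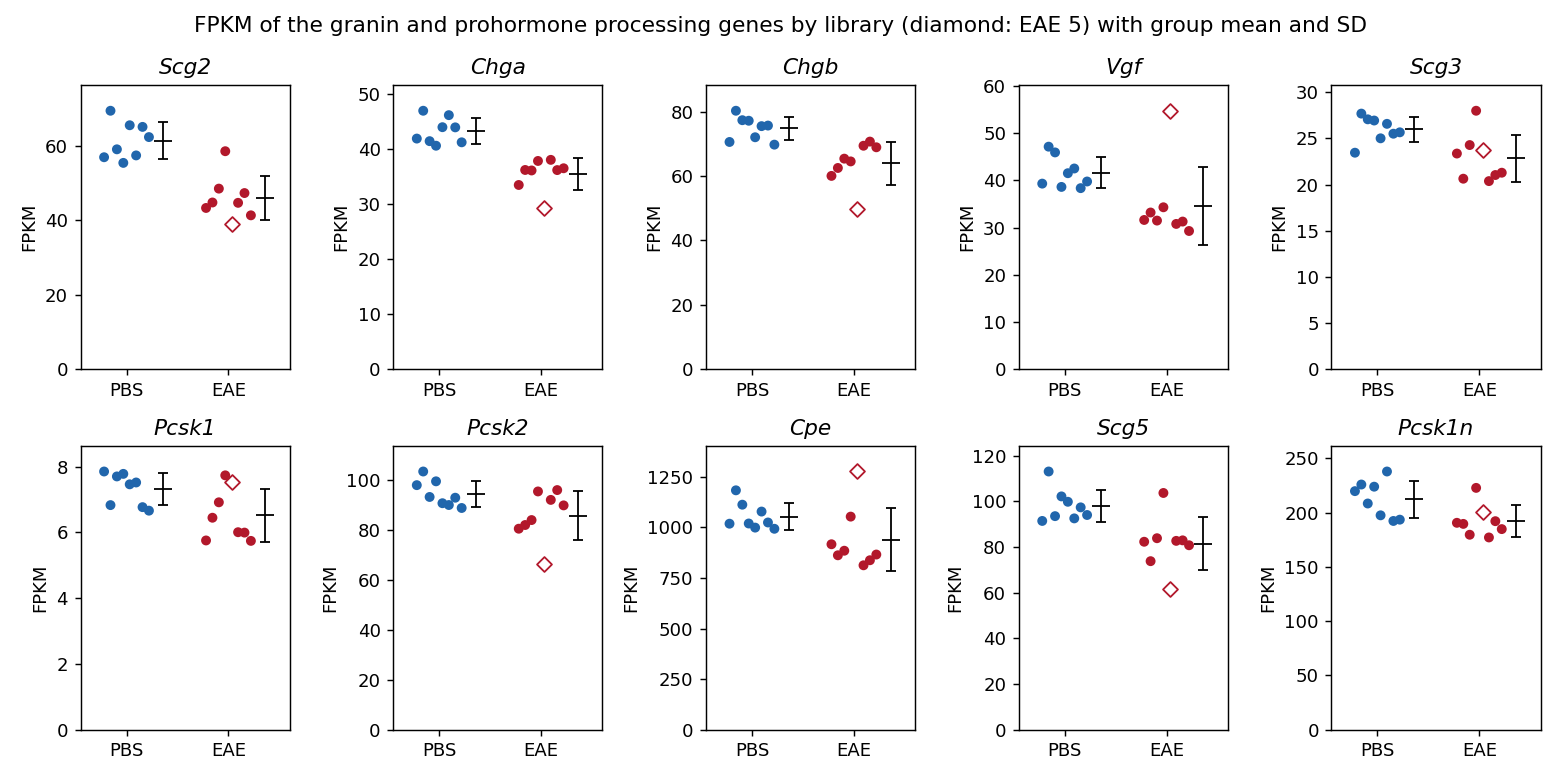
FPKM (y axis, from 0, with its own scale in each panel) of the 10 members in 8 PBS and 8 EAE libraries, with 1 point per library, a diamond for EAE 5, and a bar for the group mean and SD. The Chga points of the groups do not overlap, and EAE 5 is at 54.8 FPKM for Vgf and 1276 FPKM for Cpe, above every other library.

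Among the granins, Scg2 showed the greatest reduction. It encodes secretogranin II, the precursor of secretoneurin, and lies on chromosome 1 from 79434669 to 79440120 on GRCm38. Its FPKM in EAE libraries was 39.0 at the lowest, 44.7 at the median and 58.5 at the highest, and in PBS libraries 55.4, 60.7 and 69.4. Of the 8 EAE libraries, 7 were below every PBS library, and EAE 4 was the exception. The log2FC of Scg2 was -0.47 (SE 0.07, adjusted p = 0.00233 from edgeR), a fitted 72.2% of the PBS level, and only 5 mRNAs had a smaller p-value. Whichever of the 16 libraries was omitted, Scg2 kept its call.

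Chga encodes chromogranin A, the best known marker of neuroendocrine granules, and lies on chromosome 12 from 102554969 to 102565028. Its FPKM ranged from 29.3 to 38.0 in EAE libraries (median 36.2) and from 40.6 to 47.0 in PBS libraries (median 42.9). The groups did not overlap, which was true in this direction of 0.101% of all mRNAs tested and of no other member. In the edgeR fit Chga stood at 79.1% of the PBS level, a log2FC of -0.34 with an SE of 0.05 (adjusted p = 0.00317). It too kept its call whichever library was omitted.

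Chgb encodes chromogranin B and lies on chromosome 2 from 132781278 to 132795079. Its FPKM was 49.9 to 70.8 in EAE libraries (median 65.0) and 69.8 to 80.4 in PBS libraries (median 75.7). EAE 7 alone overlapped the PBS range, and EAE 5 was the lowest. The log2FC of Chgb was -0.28 (SE 0.06, adjusted p = 0.0232 from edgeR). Omitting EAE 1, EAE 2 or PBS 2 raised the adjusted p of Chgb to 0.0515, 0.0524 and 0.0574, and omitting any of the other 13 libraries left the call in place.

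Scg3 encodes secretogranin III, which binds chromogranin A and cholesterol-rich granule membrane, and lies on chromosome 9 from 75643189 to 75684056. It was the least abundant granin, with 20.4 to 28.0 FPKM in EAE libraries (median 22.3) and 23.5 to 27.7 FPKM in PBS libraries (median 26.1). The highest value of all 16 libraries was that of EAE 4, and 5 EAE libraries were below every PBS library. For Scg3 the difference was -0.24 on the log2 scale with an SE of 0.06 (edgeR adjusted p = 0.0382). The call of Scg3 held only when EAE 4, EAE 5, PBS 1, PBS 4 or PBS 6 was the library omitted, and the adjusted p was 0.0531 to 0.0887 when it was any of the other 11, with the highest value without PBS 2.

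Vgf encodes the precursor of several neuropeptides, among them TLQP-21, and is induced by neurotrophins. It lies on chromosome 5 from 137026392 to 137033351. Its FPKM was 29.3 to 54.8 in EAE libraries (median 31.5) and 38.4 to 47.2 in PBS libraries (median 40.6). Of the 8 EAE libraries, 7 lay between 29.3 and 34.3 FPKM, below every PBS library, whereas EAE 5 was above every PBS library at 54.8 FPKM. With all libraries the log2FC of Vgf was -0.32 (SE 0.10, adjusted p = 0.0896 from edgeR), and it was not called. Without EAE 5 it was -0.45 (SE 0.05, adjusted p = 0.000890), and with any other single library omitted Vgf was not called.

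**Figure D2:**
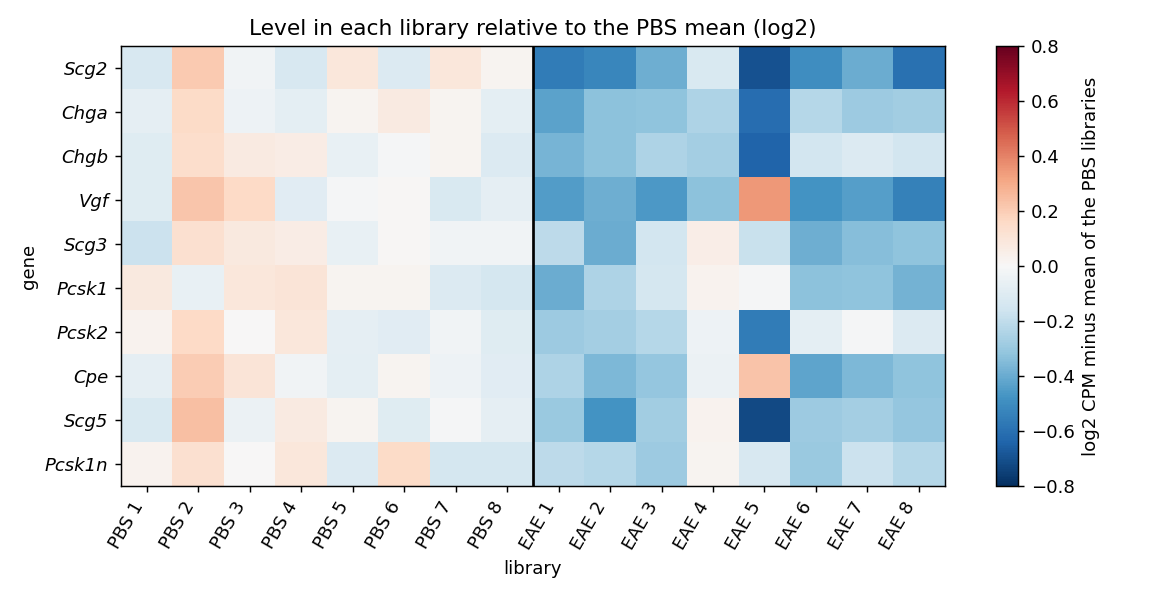
Level of each member (rows) in each library (columns), as log2 CPM minus the mean of the PBS libraries, with blue for lower and red for higher. The EAE columns are mostly blue, EAE 4 is paler, and EAE 5 combines the lowest Scg2, Chga, Chgb, Pcsk2 and Scg5 with the highest Vgf and Cpe.

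Neither convertase was called. Pcsk1 lies on chromosome 13 from 75089826 to 75134861 and was the least abundant member, with 5.74 to 7.73 FPKM in EAE libraries (median 6.225) and 6.66 to 7.85 FPKM in PBS libraries (median 7.49). In 5 EAE libraries Pcsk1 was below every PBS library. Its log2FC was -0.22 (SE 0.07, edgeR adjusted p = 0.0891), and without EAE 4 or EAE 5 the adjusted p of Pcsk1 was 0.0206 or 0.0322. Pcsk2 lies on chromosome 2 from 143546156 to 143816285 and overlaps 2 antisense genes, Pcsk2os1 and Pcsk2os2. It had 66.4 to 95.9 FPKM in EAE libraries (median 86.8) and 88.7 to 103 FPKM in PBS libraries (median 93.0). The log2FC of Pcsk2 was -0.19 (SE 0.06, adjusted p = 0.120 from edgeR), and 4 EAE libraries, EAE 5 lowest of all, were below every PBS library. Without EAE 4 the adjusted p of Pcsk2 was 0.0499.

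Cpe was by far the most abundant member. It lies on chromosome 8 from 64592542 to 64693054, with 812 to 1276 FPKM in EAE libraries (median 875) and 993 to 1183 FPKM in PBS libraries (median 1022). As for Vgf, EAE 5 was above all PBS libraries. EAE 4, at 1053 FPKM, was within their range, and the other 6 EAE libraries were below it. The log2FC of Cpe was -0.22 (SE 0.08, adjusted p = 0.130 from edgeR) with all libraries and -0.29 (SE 0.05, adjusted p = 0.00537) without EAE 5.

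Of the enzyme partners, Scg5 was called lower and Pcsk1n was not. Scg5, on chromosome 2 from 113776362 to 113829121, had 61.7 to 104 FPKM in EAE libraries (median 82.5) and 91.4 to 113 FPKM in PBS libraries (median 95.6). Of the EAE libraries, 7 were below every PBS library, and EAE 4 was not. The log2FC was -0.32 (SE 0.08, adjusted p = 0.0293 from edgeR), and the adjusted p of Scg5 rose to between 0.0502 and 0.0720 when EAE 1, 2, 3, 6 or 8 or PBS 2, 5 or 7 was omitted. Pcsk1n, on the X chromosome from 7919822 to 7924410, overlaps Eras on the other strand. It had 177 to 223 FPKM in EAE libraries (median 190) and 192 to 238 FPKM in PBS libraries (median 214), and its log2FC of -0.19 (SE 0.05, adjusted p = 0.0598 from edgeR) missed the threshold. Without EAE 4 or EAE 5 the adjusted p of Pcsk1n was 0.0108 or 0.0397. Whether strand was used in counting is not given in the sources used here. It is therefore not known whether the genes opposite to Pcsk2, Pcsk1n and Scg3 affect the counts of these 3 members.

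The order of the levels per length was Cpe, Pcsk1n, Pcsk2, Scg5, Chgb, Scg2, Chga, Vgf, Scg3 and Pcsk1, from a mean of 996 FPKM over the 16 libraries down to 6.92 FPKM. Neighbours in this order were clearly apart between Cpe and Pcsk1n, between Pcsk1n and Pcsk2, between Vgf and Scg3 and between Scg3 and Pcsk1, where the ranges did not overlap. Pcsk2 and Scg5 had nearly equal means of 90.1 and 89.7 FPKM, and Pcsk2 was the higher of the pair in 7 of 16 libraries. Chga and Vgf, at 39.4 and 38.1 FPKM, were also close, with Chga higher in 13 libraries. For comparison, the median mRNA tested had a mean of 5.26 FPKM, and 8 members were above the 90th percentile of 29.2 FPKM.

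Ratios within a library do not depend on its total. For PC1/3 and its inhibitor, the ratio of Pcsk1n to Pcsk1 FPKM was 26.0 to 33.1 in EAE libraries (median 29.5) and 26.5 to 33.1 in PBS libraries (median 28.6). The ratio of Scg5 to its partner Pcsk2 was 0.864 to 1.09 in EAE libraries (median 0.915) and 0.934 to 1.1 in PBS libraries (median 1.04), with 5 EAE libraries below every PBS library. The ratio of Vgf to Scg2 was 1.40 in EAE 5 and 0.586–0.742 in the other EAE libraries, against 0.589–0.778 in PBS libraries. For Cpe and Pcsk2, the ratio was 19.2 in EAE 5 and 8.73–11.4 in the other EAE libraries, against 10.3–12 in PBS libraries. EAE 5 therefore stood apart from all 15 other libraries in both of these ratios. This follows from its highest Vgf and Cpe and its lowest Scg2 and Pcsk2. For Pcsk1n to Pcsk1 (26.7) and Scg5 to Pcsk2 (0.93), EAE 5 was within the range of the other EAE libraries.

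**Figure D3:**
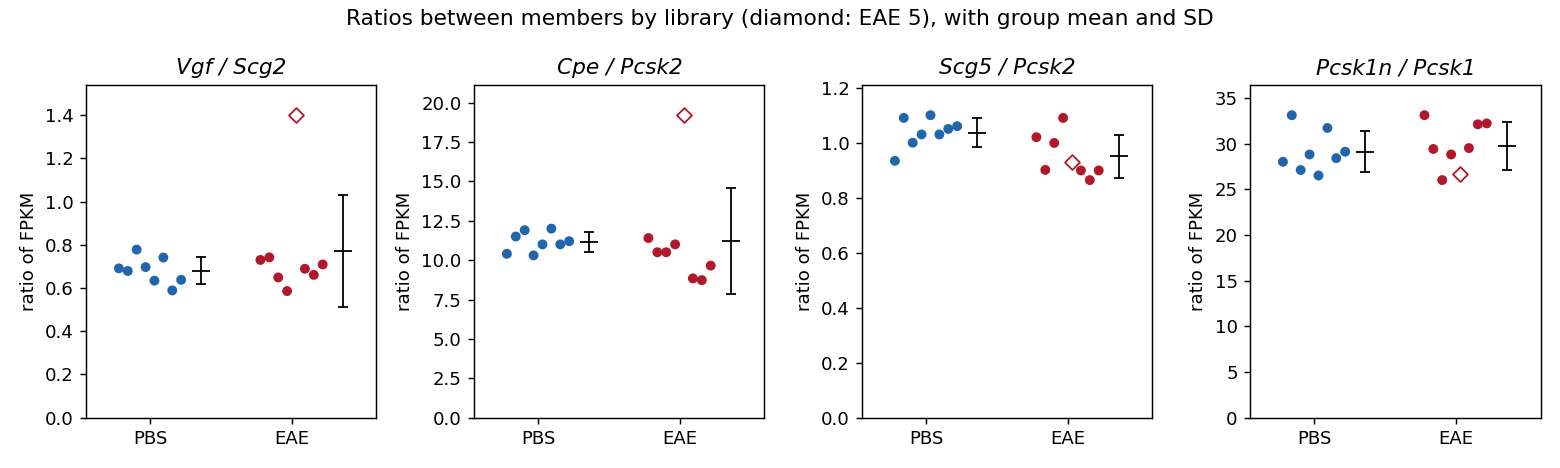
Ratios of FPKM between members in the same library (y axis, from 0) for 8 PBS and 8 EAE libraries, with 1 point per library, a diamond for EAE 5, and a bar for the group mean and SD. EAE 5 is at 1.40 for Vgf to Scg2 and at 19.2 for Cpe to Pcsk2, while Pcsk1n to Pcsk1 spans about the same range in the groups.

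Within the groups, the members did not vary as 1 block. After the mean of each group was taken off, Pearson's r of the log2 CPM over the 16 libraries had a median of 0.28 over the 45 pairs of members, from -0.59 for Chgb with Vgf to 0.91 for Vgf with Cpe, and 14 pairs were negative. Without EAE 5 the median was 0.43, and 1 pair was negative. Chgb with Pcsk2 (r of 0.89), Chga with Chgb (0.83) and Scg2 with Scg5 (0.82) were also high, and without EAE 5 these were 0.78, 0.64 and 0.79. The libraries share depth and cell content, so these values are a description. Among 13300 other mRNAs with a mean of at least 1 FPKM, the profile of the members averaged over the 10 was most like that of Sar1a (r of 0.92), and Lmbrd1, Adcy2 and Olfm3 (0.89 each) were among the next. None of these 4 mRNAs was called between the groups, with log2FC values from -0.28 for Olfm3 to -0.12 for Sar1a.

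Set against the summed pan-neuronal markers of the same library, the overlap of the groups differed from member to member. Of these 19 markers, 4 were themselves called lower in EAE libraries, among them the abundant Syp and Ndrg4. The ratios are therefore not free of the group difference in the summed markers. Per 1000 FPKM of these markers, Scg2 was 19.4–26.5 in EAE libraries (median 21.3) and 24.2–28.4 in PBS libraries (median 26.7), with 7 EAE libraries below every PBS library. Scg5, at 34.1–46.8 and 40.7–45.6, had the same number below. Chga, at 16–17.9 and 17.8–20.6, had 6 EAE libraries below every PBS library. By contrast Pcsk2 was 36.7–43.1 (median 41.4) and 39.2–44.2 (median 40.3), and Pcsk1n was 82.8–111 (median 88.9) and 82.2–106 (median 91.0), with 2 EAE libraries below every PBS library for Pcsk2 and 0 for Pcsk1n. For the other members, 3 to 6 EAE libraries were below every PBS library, namely 6 for Vgf, 5 for Cpe, 4 each for Chgb and Scg3 and 3 for Pcsk1. In EAE 5 the neuronal markers were at 1812 FPKM, the lowest of all libraries, while the astrocyte markers, at 1873 FPKM, and the oligodendrocyte markers, at 1326 FPKM, were the highest. The part of this difference in the values of Vgf and Cpe was not tested.

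Related genes were read from lists of the same pathway. Of 22 other processing enzymes, 0 were called in either direction by edgeR. Over all mRNAs tested, 1.76% were called lower and 0.66% higher, so 0 calls in a list of this size are near the background. An unadjusted p under 0.05 was found for 7 of the 22, against 17.4% of all mRNAs tested, and with DESeq2 1 was called higher. Their median log2FC was -0.01, with 12 values negative and 10 positive. Pam, which amidates peptides, was at -0.13 on the log2 scale (SE 0.05, edgeR adjusted p = 0.197), and Mbtps1, a convertase of the early Golgi, one of -0.01 (SE 0.04, adjusted p = 0.962). Furin and Cpd, which act in the trans-Golgi network of most cell types, had values of -0.04 (SE 0.08) and -0.01 (SE 0.04).

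Of 35 tested genes for granule formation and release, 4 were called lower and 0 higher, against 1.76% and 0.66% of all mRNAs, with 12 at an unadjusted p under 0.05, against 17.4% of all, and the median log2FC was -0.04. The called genes were Sort1, a sorting receptor (-0.24, SE 0.04, adjusted p = 0.00717 from edgeR), Atp6ap1 and Atp6ap2, accessory proteins of the proton pump that acidifies granules and lysosomes (-0.27, SE 0.06, and -0.35, SE 0.08), and Ptprn2, a granule membrane protein (-0.16, SE 0.04, adjusted p = 0.0309). For its paralog Ptprn the edgeR difference was -0.14 (SE 0.04, adjusted p = 0.0585). Snap25, of the membrane fusion machinery, had one of -0.07 (SE 0.05, adjusted p = 0.571).

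Of 44 tested genes listed as neuropeptide and hormone precursors, 29 had a negative and 15 a positive log2FC, with a median of -0.16. Npy was called lower (-0.47, SE 0.12, adjusted p = 0.0439 from edgeR), 0 were called higher, and 11 had an unadjusted p under 0.05. Over all mRNAs 1.76% were called lower and 17.4% had such a p. The 1 call of 44 is near the first of these shares. Some of the 44 were near the floor, where a call is hardly possible, such as Nmu at 0 to 4 counts and Prl at 0 to 10. With DESeq2 4 precursors were called lower, beside 3.41% of all mRNAs. The abundant precursors Cck, Sst and Penk had log2FC values of -0.28 (SE 0.09), -0.31 (SE 0.13) and -0.36 (SE 0.10), with adjusted p-values of 0.11, 0.228 and 0.0651 from edgeR. Of the 19 pan-neuronal markers, 15 had a negative log2FC, with a median of -0.11, and 8 had an unadjusted p under 0.05. In edgeR 4 of the 19 were called lower and 0 higher. These were Gad1, Ndrg4, Syp and Syt1, with values of -0.53 (SE 0.08), -0.22 (SE 0.05), -0.36 (SE 0.09) and -0.28 (SE 0.07). The medians of these 4 lists lay between that of the 10 members, -0.26, and that of all mRNAs, 0.01.

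Markers of other cell types also differed in direction between the lists. Over all mRNAs tested, 1.76% were called lower, 0.66% were called higher and 17.4% had an unadjusted p under 0.05. Of 11 astrocyte markers, 9 had a negative log2FC, with a median of -0.21 and 8 at an unadjusted p under 0.05, and edgeR called Fgfr3 lower and Gfap higher. Of 10 oligodendrocyte markers, 8 were negative with a median of -0.13, and 4 had an unadjusted p under 0.05 but none passed the adjustment in edgeR. On the other side, all 12 neutrophil markers had a positive log2FC, with a median of 1.24, and 4 were called higher, namely Ngp, Ltf, S100a8 and S100a9. Some of the 12 were near the floor, such as Elane at 0 to 5 counts and Ly6g at 0 to 9. The summed level of the 12 was 49.98–100.8 FPKM in EAE libraries and 19.45–57.68 FPKM in PBS libraries. A large part of it was Lcn2, with medians of 30.5 and 27.3 FPKM, which was not called (adjusted p = 0.478 from edgeR). Of the 17 microglia markers, 15 were positive with a median of 0.16, and Itgam and Trem2 were called higher. The part of these differences in the values of the 10 members was not tested.

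**Figure D4:**
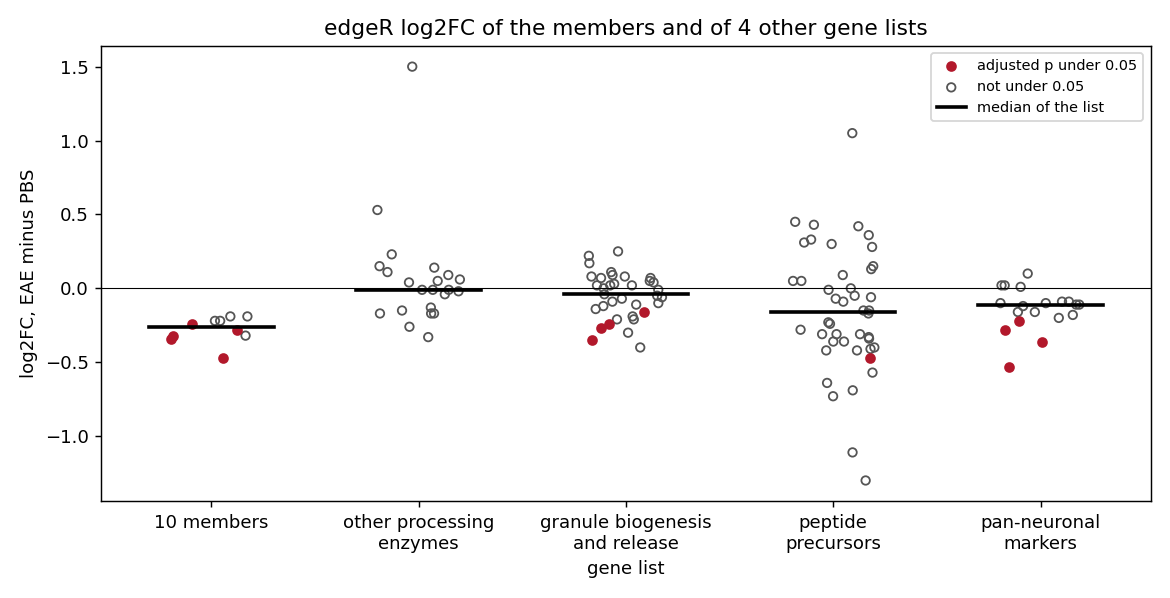
Fitted log2FC, EAE minus PBS (y axis), of the 10 members and of 4 other gene lists (x axis), with 1 point per gene, filled where the adjusted p was under 0.05, and a line for the median. The members lie between -0.47 and -0.19, while the other processing enzymes scatter around a median of -0.01.

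The number of members called depended on single libraries. It was 2 without EAE 1, EAE 2 or PBS 2, where 0.762%, 0.594% and 0.583% of all mRNAs were called lower, and 9 without EAE 5, where 3.42% were. It was 8 without EAE 4, where 4.57% were. In each of these fits all 10 log2FC values were negative. Without EAE 4 and EAE 5 together, a choice made after their values were seen, 10 members were called, beside 7.79% of all mRNAs. On the scale of the FPKM values, which are relative to the library total, limma called 2 members, Scg2 and Chga, beside 0.408% of all mRNAs at a pseudocount of 0.1 and 0.447% at 1, and the median log2FC was -0.21. DESeq2 called 8 members beside 3.41% of all mRNAs, and edgeR with a term for the sets of libraries described next called 8 beside 2.94%.

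Libraries EAE 6, 7 and 8 and PBS 5, 7 and 8 were the most alike within their groups by their counts, and the labels name no batch for them. Setting them apart by these same counts makes SEs and adjusted p-values smaller among them and leaves the wider spread to the other 10. The calls within each set are therefore a description. Among these 6 libraries 8 members were called lower, beside 13.1% of all mRNAs, and Pcsk2 and Chgb were not. Here Scg2 had a log2FC of -0.56 (SE 0.04), Pcsk2 of -0.00 (SE 0.03, adjusted p = 0.994 from edgeR) and Chgb of -0.09 (SE 0.04, adjusted p = 0.0841). Among the other 10 libraries 0 members were called by edgeR, beside 0.0286% of all mRNAs. There Scg2 was at -0.42 (SE 0.10, adjusted p = 0.132), Chgb at -0.40 (SE 0.08) and Pcsk2 at -0.31 (SE 0.08). The difference between the sets of libraries was not tested.

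**Figure D5:**
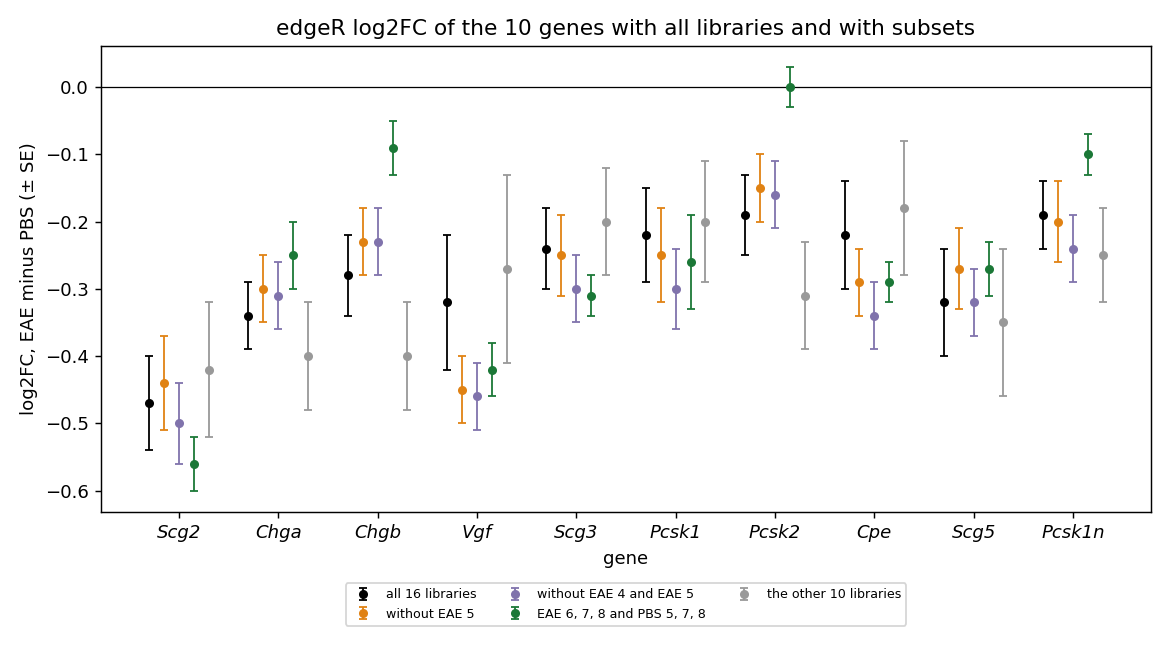
Fitted log2FC, EAE minus PBS, with its SE (y axis) for each member (x axis), from all 16 libraries and from 4 subsets of them in different colours. The points lie below 0 apart from that of Pcsk2 in EAE 6, 7, 8 and PBS 5, 7, 8, which is at -0.00, and Vgf moves from -0.32 to -0.45 without EAE 5.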

How the data were processed

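The authors removed ribosomal RNA, sequenced stranded paired-end libraries, aligned the reads with HISAT2 2.1.0 and counted them with HTSeq 0.11.2, as the methods and the submitters' processing notes list them. GRCm38 is the build the methods name. They deposited raw counts per mRNA and FPKM values, scaled to gene length and library total. All 16 sample columns were used (0 unused).

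Counts were tested here with edgeR 4.0.16 in R 4.3.3 (TMM, quasi-likelihood, EAE against PBS, two-sided) for mRNAs with at least 16 counts in total. SEs are the log2FC divided by the root of F. On simulated counts for 17764 genes, 200 of them changed by a log2FC of 0.4, 64.0% of the changed genes were recovered and 4.48% of the calls were false. The changed genes were drawn only from those above a set mean count. Each gene was simulated on its own, without spread that genes share within a library. These rates therefore do not carry over to the real libraries. Alternatives used DESeq2 1.42.0, limma 3.58.1 on log2(FPKM + 0.1) or log2(FPKM + 1), other filters and scalings, left-out libraries, library sets and a replicate block. The members and all lists were chosen with earlier results of these data known. Named genes were all members, listed genes called or most abundant, and the 5 most similar mRNAs, of which 1 is not reported here. Positions are from GENCODE M21 (GRCm38).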

Additional observations from a re-analysis of the deposited data

Results flagged for a closer look

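The FPKM of Vgf in EAE 5 was 54.8, and its gap to the next EAE library was a larger part of the range of the 8 EAE libraries than Dixon's 95% critical value for a group of that size allows. This was the only value so marked among the 20 groups of 8 libraries checked, and chance marks about 1 in 20.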

How the results depend on the processing

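Of 280 log2FC values of single members under alternatives, 0 were reversed, 34 lost their call and 23 gained one. Members called lower numbered 5 in the fit reported. They were 8 with DESeq2, 2 with limma at either pseudocount, 8 with a term for the library sets, 8 within EAE 6 to 8 and PBS 5, 7 and 8, 0 within the other 10 libraries and 10 without EAE 4 and EAE 5. Leaving out 1 library gave 2 to 9.

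All mRNAs called lower (315) were 610 with DESeq2, 73 and 80 with limma at pseudocounts of 0.1 and 1, 526 with the set term, 2251 and 5 within the sets, 1385 without EAE 4 and EAE 5, and 104 to 815 without 1 library. Those called higher (118) were 299 with DESeq2, 242 with the set term, 1896 and 8 within the sets, 957 without EAE 4 and EAE 5, and 39 to 502 without 1 library.

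For the other processing enzymes, the count was 4 lower and 4 higher within the 6 alike libraries, 2 and 2 without EAE 4 and EAE 5, and 1 higher with DESeq2, the replicate block or the set term, with 0 to 1 lower and 0 to 2 higher without 1 library. Granule genes were 7 lower and 1 higher with DESeq2, 2 lower with limma, 9 lower and 6 higher within the 6 libraries, 0 within the other 10 libraries and 9 lower and 1 higher without EAE 4 and EAE 5, with 2 to 9 lower and 0 to 1 higher without 1 library. Precursors called lower were 4 with DESeq2, 0 with limma, 3 with the replicate block or the set term, 5 within the 6 libraries, 0 within the other 10 and 9 without EAE 4 and EAE 5, with 0 to 7 without 1 library. Neuronal markers called lower were 1 with limma, 8 within the 6 libraries and 0 within the other 10, with 1 to 5 without 1 library. The causes were not tested.

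Equal replicate numbers do not pair mice by the labels. Deviations of same-numbered libraries correlated at -0.252 to 0.594, and 2 of 8 EAE libraries were most like their own number. With the replicate block 6 members were called, and 367 mRNAs lower. Every member had at least 744 counts in each library, so the spread between libraries and not counting error limits these comparisons. With 1 library per mouse, spread between mice and spread from preparation cannot be told apart.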
